A study of Mus musculus with 8 samples.

Results

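The Rab GTPases were described in sorted tubules of the mouse distal convoluted tubule (DCT), the nephron segment that reabsorbs sodium chloride through the thiazide-sensitive cotransporter. Members were the probe sets with exactly 1 gene symbol, where that symbol was Rab followed by a number and at most 1 letter and 1 digit. These were 61 probe sets of 58 genes, out of 18782 genes measured by a probe set of 1 symbol, and each gene was represented by the probe set with the highest mean log2 intensity over the 8 arrays. The mouse RefSeq gene table holds 59 symbols of this form. The one not included, Rab26, was read here only by a probe set that also names Traf7.

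The study set 4 arrays of TBC1D4-deficient mice beside 4 of TBC1D4 wild-type mice, all male, aged 8 weeks and on the C57/Bl6 strain. Every mouse, wild-type controls included, also carried the PV-EGFPwt/tg transgene, in which the parvalbumin promoter drives EGFP, so the tubules collected on the COPAS large-particle sorter were those in which that promoter is active. The sources used here do not state which part of Tbc1d4 is missing or whether animals were pooled for a sample. The comparison asks which transcripts differ in the DCT when TBC1D4 is missing, and among the Rab genes it asks whether the substrates of TBC1D4, or their relatives, stand at another level.

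Rab proteins are small GTPases that mark membrane compartments. In the GTP-bound form they sit on a membrane and recruit effectors such as motors, tethers and sorting adaptors, and after GTP hydrolysis they are extracted from the membrane by GDP dissociation inhibitors. Exchange factors load GTP, and GTPase-activating proteins with a TBC domain, such as TBC1D4 (AS160), speed its hydrolysis. TBC1D4 acts on Rab2a, Rab8a, Rab10 and Rab14 in vitro, and phosphorylation by Akt blocks this activity, which lets GLUT4 vesicles reach the surface of fat and muscle cells.

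The arrays matched their labels: the log2 level of Tbc1d4 was 6.75 ± 0.15 with the gene intact and 2.48 ± 0.21 without it (SD over n = 4 arrays of each genotype; limma adjusted p = 6.35e-08). The sorted material carried the DCT markers, with the cotransporter Slc12a3 at 11.49 and the 12 measured DCT markers at a mean of 10.06 in both genotypes. Markers of other cells were present at lower means. They stood at 7.14 and 6.84 in wild-type and TBC1D4-deficient arrays for 20 proximal tubule genes, at 6.72 and 6.63 for 7 thick ascending limb genes, at 5.99 and 5.82 for 6 intercalated cell genes, at 5.73 and 5.55 for 6 connecting tubule and collecting duct genes, at 3.89 and 3.61 for 13 endothelial genes and at 2.84 and 2.86 for 7 leukocyte genes. The 7 fibroblast and mural cell genes stood at 2.87 and 2.79. Umod is in both the DCT and the thick ascending limb lists. Umod and Kcnj1 stood at 11.14 and 10.61 in wild-type arrays, above the next limb gene, Slc12a1, at 7.54. All 20 proximal tubule, all 13 endothelial and all 6 collecting duct genes had the lower mean without TBC1D4. So had 6 of 7 thick ascending limb, 6 of 7 fibroblast and mural, 5 of 6 intercalated, 5 of 12 DCT and 2 of 7 leukocyte genes. The mean of the proximal tubule markers, each centred over the 8 arrays, ranged from -0.56 to 0.71 in the wild-type arrays and from -1.05 to 0.24 in the TBC1D4-deficient ones. That of the endothelial markers did not overlap, with 0.03 to 0.21 in wild-type and -0.38 to 0.0013 in TBC1D4-deficient arrays, so a fit with this mean cannot fully part it from the genotype. Since no label ties each array to a separate mouse, the tests speak only of the spread among these 8 samples, part of which may be technical.

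Most Rab genes lay above the typical gene. By mean level over the 8 arrays, 48 of the 58 were above the median gene and 17 were in the top 10% of all genes. Levels of 6 or above on the log2 scale were found for 28 Rab genes, levels of 4 to 6 for 16 and levels below 4 for 14. A probe set reports its transcript with a brightness of its own, so this order is one of array signal and does not give relative numbers of transcripts. The files hold no detection call, and a dim probe set cannot be told from background.

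**Figure D1:**
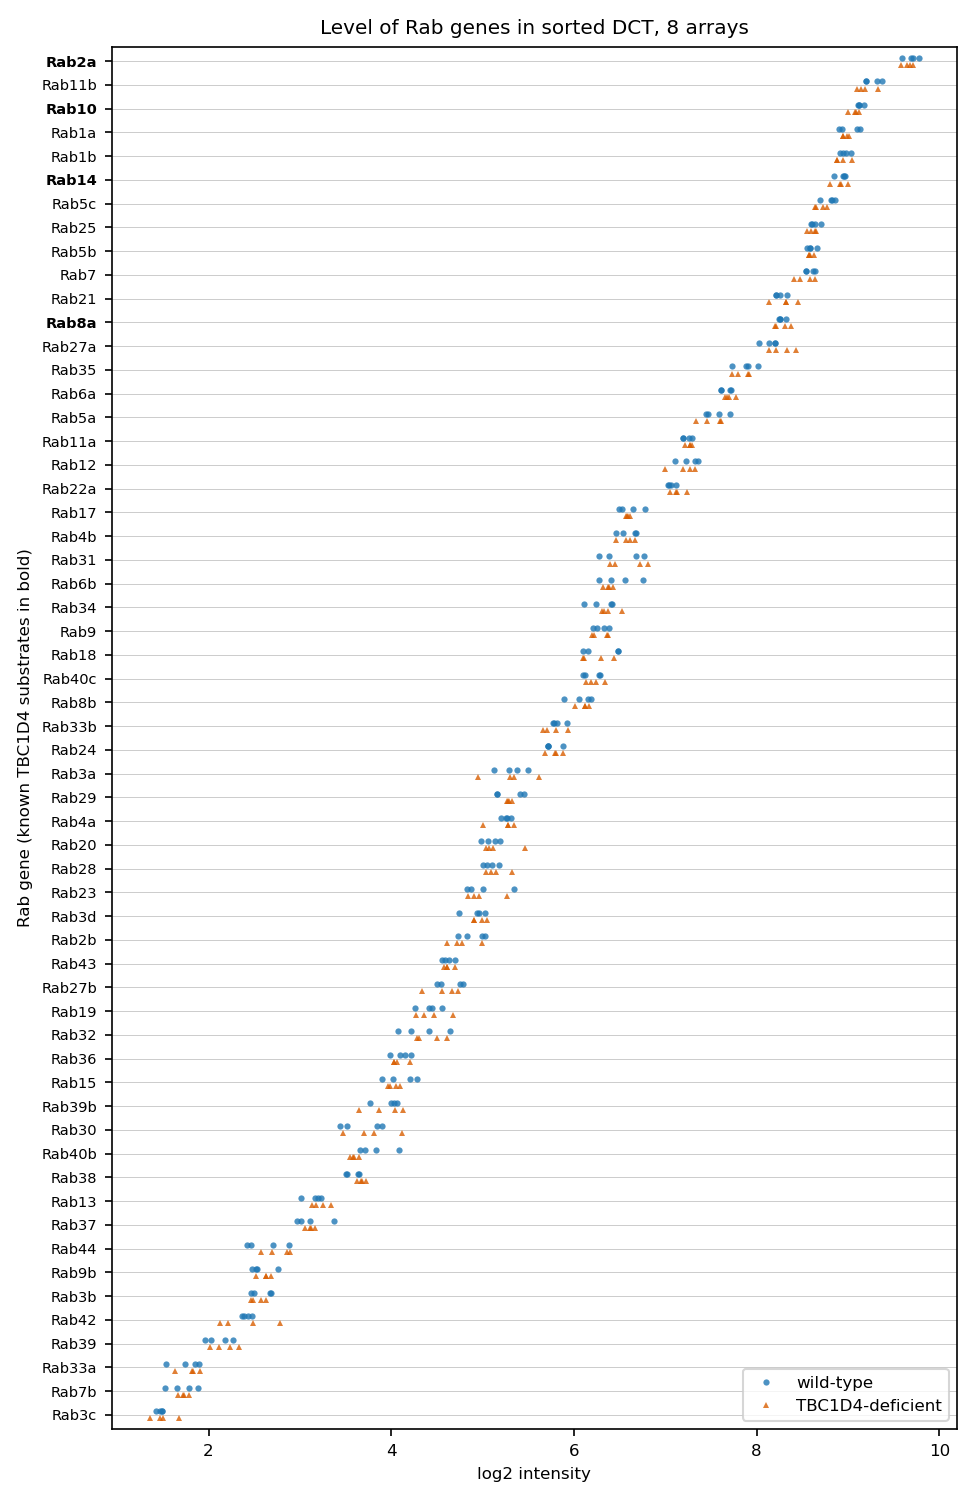
Level of the 58 Rab genes (log2 intensity, horizontal axis), ordered by their mean, with 1 point for each of the 4 wild-type (circles) and 4 TBC1D4-deficient arrays (triangles). The points of both genotypes lie together within each gene, while the genes span 8.19 log2 units from Rab3c to Rab2a.

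Among the brightest Rab genes were several of the secretory pathway and of endosomes. The same compartments also held dim genes, such as Rab33a (1.78) and Rab30 (3.72) of the Golgi and Rab7b (1.72) of late endosomes. Rab2a, which acts between the endoplasmic reticulum and the Golgi, led at 9.67. It was followed by Rab11b of recycling endosomes (9.23), Rab10 of exocytic and basolateral sorting (9.10), Rab1a and Rab1b of transport from the endoplasmic reticulum to the Golgi (8.99 and 8.95) and Rab14 of Golgi and endosomes (8.92). Next came Rab5c and Rab5b of early endosomes (8.75 and 8.59), the epithelial Rab25 of apical recycling (8.62), Rab7 of late endosomes (8.56), Rab21, which takes part in integrin endocytosis (8.28), Rab8a (8.27) and Rab27a of regulated secretion (8.21). These 13 genes stood at 8 or above, each in the top 5% of genes, and all 4 substrates were among them.

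The order was nearly the same in both genotypes. The rank was identical for 38 of the 58 genes, moved by 1 place for 15 and by 2 or 3 places for 5. Neighbours in the order were mostly not separated: for 49 of the 57 neighbouring pairs the ranges over the 8 arrays overlapped. Rab2a lay above Rab11b in every array, and Rab27a above Rab35, while Rab10, Rab1a, Rab1b and Rab14 overlapped with their neighbours.

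At the other end, the 6 dimmest were Rab3c, a Rab of synaptic vesicles (1.49), Rab7b (1.72), Rab33a (1.78), Rab39 (2.14), Rab42 (2.41) and Rab3b (2.56). Of the 7 measured Rab genes of regulated secretion, Rab27a was the only one above 6. Rab3a stood at 5.31, Rab3d at 4.94, Rab27b at 4.61 and Rab37 at 3.12. Within families the members also differed in signal. Rab8a stood at 8.27 and Rab8b at 6.09, Rab6a at 7.68 and Rab6b at 6.44, Rab4b at 6.58 and Rab4a at 5.24, and Rab9 at 6.29 and Rab9b at 2.59. Rab13, which acts at tight junctions, was dim at 3.19.

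For 3 of the bright genes the signal came from a probe set of uncertain origin. Rab2a, Rab5b and Rab11b each had a pair of probe sets with only their symbol. In each the brighter one carries a number that lies among probe sets of another chromosome. Of the 50 nearest numbered probe sets with a known chromosome, 96% named genes of chromosome 5 for Rab2a, which is on chromosome 4. They were all on chromosome 19 for Rab11b, a gene of chromosome 17, and all on chromosome 2 for Rab5b, a gene of chromosome 10. The other 55 Rab genes had no such mismatch, and among all brightest probe sets it was found for 393 of 18755 (2.1%). For Rab18 and Rab40b, however, only 52% of the 50 neighbours lay on the chromosome of the gene, and for the other Rab2a probe set 54%. On which genomic copy the brighter probe sets of Rab2a, Rab5b and Rab11b were designed is not stated in the sources used here.

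The other probe sets of these genes gave lower levels. For Rab5b the levels were 8.59 and 8.35, and for Rab2a 9.67 and 8.46, so both genes were above 8 by either probe set, but first place for Rab2a rests on the brighter one, as 8.46 lies below Rab7 at 8.56. For Rab11b they were 9.27 and 2.93 in wild-type arrays, and the place of Rab11b near the top of the order rests on the brighter probe set alone. Its pair also disagreed on the genotypes, with log2 differences of -0.08 (95% interval -0.24 to 0.08) and 0.15 (-0.15 to 0.45), neither of which passed (limma adjusted p = 0.9999 for both).

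The sequence before the gene start is shown for 3 substrates, for the epithelial gene Rab25 and for the dimmest gene, Rab3c, because Rab genes differed widely in how many CG dinucleotides they carry there. Each line gives the 250 bases before the start on the strand of the gene, from RefSeq (GRCm38.p6), with CG in capitals.
Rab8a (chr8:72160950-72161199, plus strand): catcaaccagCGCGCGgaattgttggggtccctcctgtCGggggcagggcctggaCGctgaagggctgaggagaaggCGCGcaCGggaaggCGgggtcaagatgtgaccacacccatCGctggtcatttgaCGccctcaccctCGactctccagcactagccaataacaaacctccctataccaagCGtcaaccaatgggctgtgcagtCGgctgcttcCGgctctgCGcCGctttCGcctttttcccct
Rab10 (chr12:3309970-3310219, minus strand): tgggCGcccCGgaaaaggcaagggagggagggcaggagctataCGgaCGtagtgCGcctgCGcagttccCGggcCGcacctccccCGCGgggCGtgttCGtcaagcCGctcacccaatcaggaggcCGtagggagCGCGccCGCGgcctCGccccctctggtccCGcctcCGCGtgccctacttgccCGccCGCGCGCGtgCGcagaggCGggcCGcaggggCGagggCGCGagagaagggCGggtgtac
Rab14 (chr2:35201121-35201370, minus strand): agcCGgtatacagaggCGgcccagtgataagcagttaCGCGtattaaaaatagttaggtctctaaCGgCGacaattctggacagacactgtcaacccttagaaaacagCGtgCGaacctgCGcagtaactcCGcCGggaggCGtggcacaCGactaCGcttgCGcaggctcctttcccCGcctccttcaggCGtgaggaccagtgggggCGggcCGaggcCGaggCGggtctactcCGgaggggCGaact
Rab25 (chr3:88548280-88548529, minus strand): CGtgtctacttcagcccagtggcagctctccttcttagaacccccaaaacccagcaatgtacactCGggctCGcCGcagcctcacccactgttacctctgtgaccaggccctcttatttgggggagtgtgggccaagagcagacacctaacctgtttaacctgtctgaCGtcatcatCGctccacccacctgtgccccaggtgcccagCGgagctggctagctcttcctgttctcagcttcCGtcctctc
Rab3c (chr13:110280207-110280456, minus strand): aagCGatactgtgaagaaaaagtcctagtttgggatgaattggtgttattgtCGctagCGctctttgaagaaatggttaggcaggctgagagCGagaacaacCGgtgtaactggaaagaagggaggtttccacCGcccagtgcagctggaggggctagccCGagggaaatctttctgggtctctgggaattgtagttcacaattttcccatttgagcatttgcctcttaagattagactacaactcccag

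In these stretches Rab10 had 34 CG, Rab14 23 and Rab8a 18, against 8 in Rab25 and 7 in Rab3c. Over windows of 300 bases, 250 before and 50 after the start, 48 of the 58 Rab genes had an entry, with 60 windows in all. The median was 19.5 CG in the Rab windows and 7 in all 32851 windows. The 26 Rab genes with levels of 6 or above had a median of 25.5 CG (5 to 43), the 13 with levels of 4 to 6 had 17.25, and the 9 below 4 had 11 (6 to 27), each gene averaged over its starts.

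Across these 48 genes Spearman's rho between CG count and level was 0.401. It is a description over genes that share the same 8 arrays and differ in base composition of their probes. Rab25 and Rab17, both Rab GTPases of polarised epithelia, ran against it, with 9 and 5 CG per window at levels of 8.62 and 6.60. This was not particular to them, as Rab9 had 9 CG at a level of 6.29 and Rab27a 12 CG at 8.21. Rab39 ran against it in the other direction, with 27 CG at a level of 2.14. The GC box GGGCGG, searched on both strands, was present in 68.3% of the Rab windows and 35.7% of all windows. CCAAT, also searched on both strands, was present in 43.3% and 37.4%. GGGCGG contains a CG, so its count is not separate from the CG count.

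**Figure D2:**
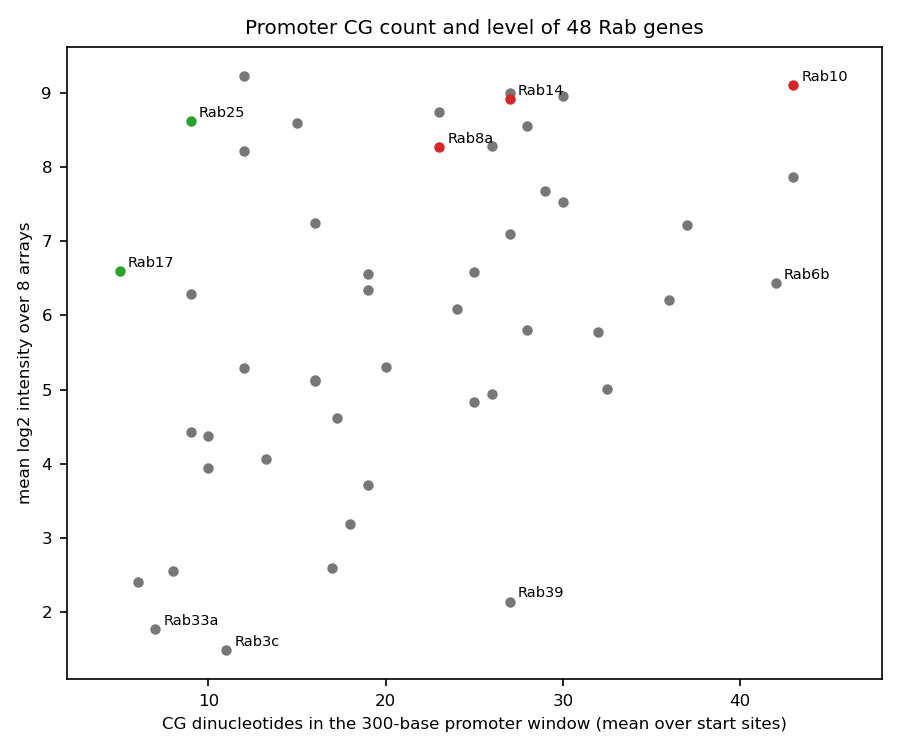
CG dinucleotides per 300-base promoter window (mean over the starts of a gene, horizontal axis) and mean log2 intensity over the 8 arrays (vertical axis) for the 48 Rab genes with a window. Known TBC1D4 substrates with a window are in red and the epithelial Rab17 and Rab25 in green. Both epithelial genes lie high for their few CG, at 6.60 and 8.62, as do Rab9 and Rab27a. Rab5b and Rab11b are placed by their brighter probe sets.

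No Rab gene differed between genotypes at the threshold. At a limma adjusted p below 0.05, 0 of 58 were called, where 0.00434% of 23039 probe sets were called, Tbc1d4 alone. Of the 58 differences, 26 lay above and 32 below 0 (49.1% of all probe sets and 49.6% of all genes lay above), with a median of -0.0061 on the log2 scale, beside -0.00074 over all genes. With each array centred on its median the split was 35 above and 23 below, as that scaling moved the median of all genes to 0.02, so no direction is given for the family. The differences were under 0.1 in size for 51 genes.

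The intervals were narrow. The 95% interval lay inside 1.5-fold for all 58 Rab genes, beside 97.4% of all probe sets, and its median half-width was 0.17 on the log2 scale. The lowest limit of any Rab gene was 0.742-fold, for Rab40b, and the highest was 1.34-fold, for Rab30. These are limits of array signal. Both genes are among the 14 below 4, where a probe set cannot be told from background. For those 14 a narrow interval need not bound a change in the transcript. In sorted tubules a difference can reflect fewer cells of a type or less RNA per cell, and these cannot be told apart.

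**Figure D3:**
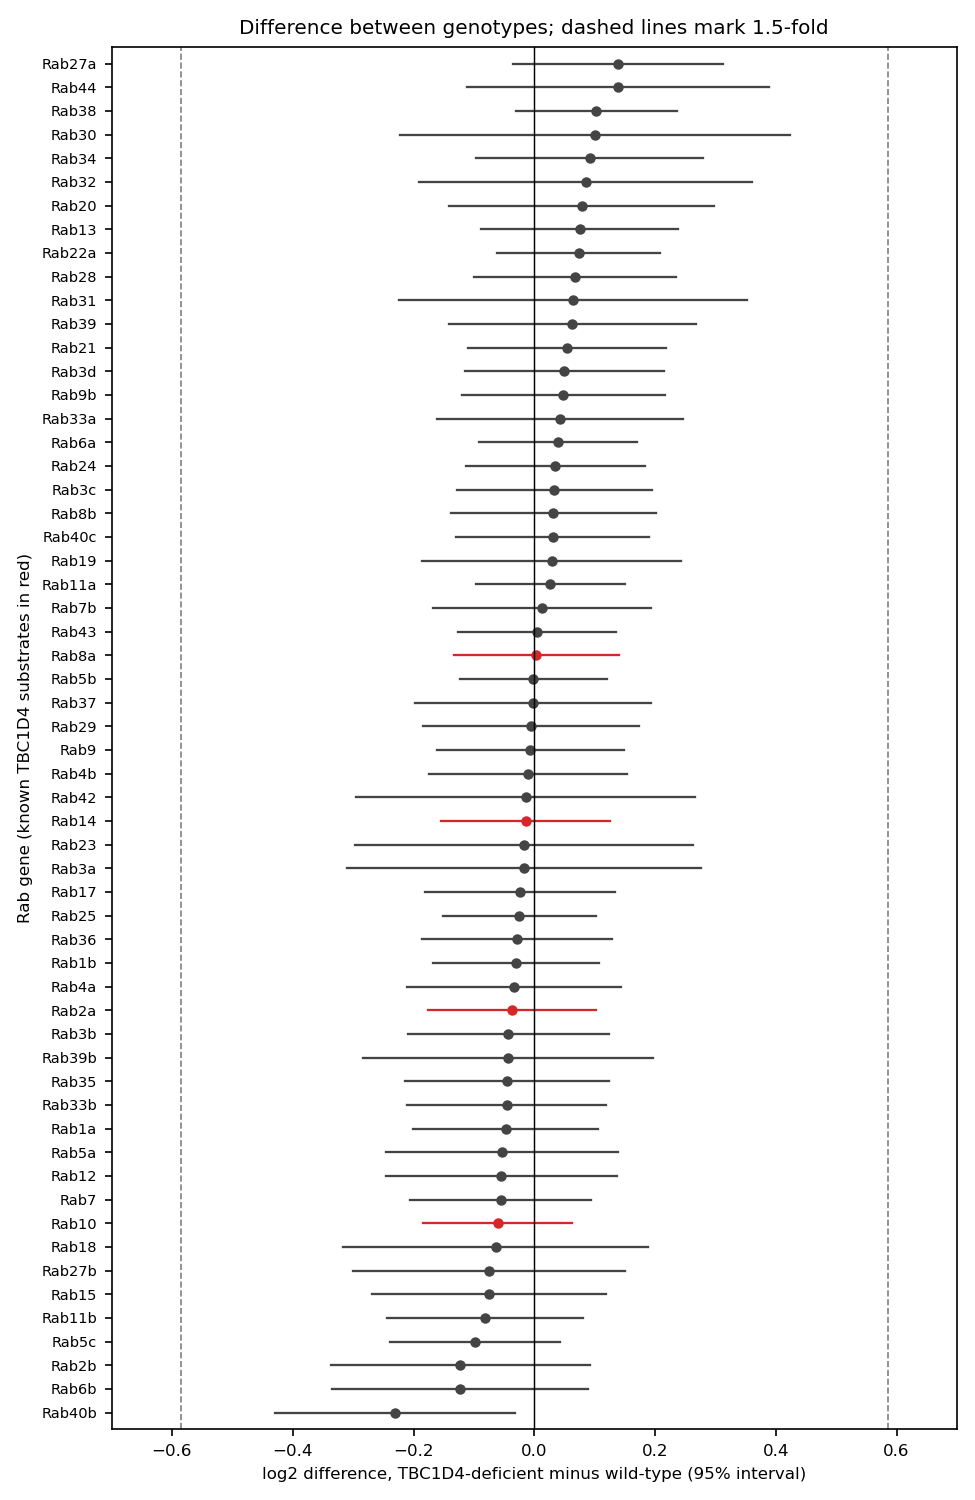
Log2 difference of each of the 58 Rab genes, TBC1D4-deficient minus wild-type (points), with its 95% interval from limma (lines). All intervals lie between the dashed lines at 1.5-fold, and that of Rab40b alone leaves out 0. They bound array signal, and dim genes may be at background.

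The transcripts of the substrates of TBC1D4 were measured at nearly the same level with and without it. Rab10, the Rab most closely tied to GLUT4 exocytosis in fat cells, read 9.12, 9.18, 9.12 and 9.10 in wild-type replicates 1 to 4 and 9.12, 9.09, 9.00 and 9.08 in TBC1D4-deficient replicates 1 to 4. TBC1D4-deficient replicate 3 was the lowest array and wild-type replicate 2 the highest, and the groups overlapped. The log2 difference was -0.06 (95% interval -0.18 to 0.06; limma adjusted p = 0.9999; exact permutation p = 0.0857, 2-sided). Within the arrays whose descriptions are numbered 5 to 8 it was -0.11, and within those numbered 9 to 12 it was -0.0088. The labels do not say what these numbers stand for, and each set holds 2 arrays of each genotype. A further number in the labels falls into a lower range with 3 TBC1D4-deficient arrays and 1 wild-type array and a higher range with 1 and 3, so it is not balanced. With that range as a covariate 32 of the 58 Rab genes lay above 0.

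Rab8a, which acts in exocytosis and at the primary cilium, read 8.25, 8.26, 8.26 and 8.32 in wild-type and 8.31, 8.21, 8.21 and 8.38 in TBC1D4-deficient replicates 1 to 4. The TBC1D4-deficient arrays lay on both sides of the wild-type ones. The log2 difference was 0.0034 (-0.13 to 0.14; exact permutation p = 0.886).

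Rab14, which has been tied to GLUT4 traffic through endosomes, read 8.96, 8.94, 8.95 and 8.85 in wild-type arrays and 9.01, 8.81, 8.92 and 8.91 in TBC1D4-deficient arrays, in replicate order. Both the highest and the lowest array were TBC1D4-deficient. The log2 difference was -0.01 (-0.15 to 0.13; exact permutation p = 0.771).

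Rab2a read 9.69, 9.71, 9.59 and 9.77 in wild-type and 9.68, 9.58, 9.64 and 9.71 in TBC1D4-deficient replicates by its brighter probe set, a log2 difference of -0.04 (-0.18 to 0.10; exact permutation p = 0.400). Its other probe set read 8.45, 8.41, 8.49 and 8.45 in wild-type and 8.50, 8.38, 8.46 and 8.51 in TBC1D4-deficient replicates, a difference of 0.01 (-0.12 to 0.14). The groups overlapped in both, and the 2 probe sets gave opposite signs within intervals that span 0. With 4 arrays against 4 the smallest p the exact test can give is 0.0286.

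**Figure D4:**
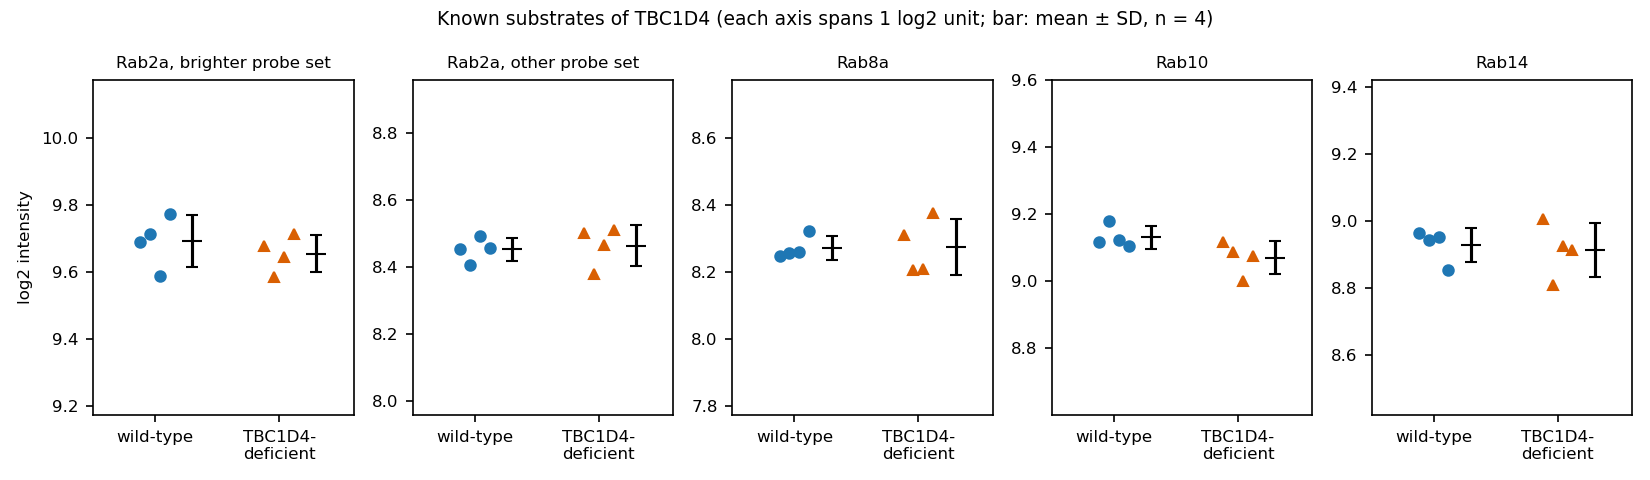
Log2 intensity of the known TBC1D4 substrates in each of 4 wild-type (circles) and 4 TBC1D4-deficient arrays (triangles), with mean ± SD; Rab2a is shown by both of its probe sets. Each vertical axis spans 1 log2 unit, and the genotypes overlap in every panel.

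The 4 brightest other Rab genes likewise had overlapping groups. Rab11b, by its brighter probe set, read 9.20, 9.32, 9.19 and 9.37 in wild-type and 9.18, 9.14, 9.10 and 9.33 in TBC1D4-deficient replicates, with both replicates 4 on top. Rab1a read 9.13, 8.94, 9.10 and 8.90 in wild-type and 9.01, 8.99, 8.94 and 8.94 in TBC1D4-deficient replicates, where the wild-type arrays enclosed the others and the difference was -0.05 (-0.20 to 0.11). Rab1b read 8.97, 8.94, 9.03 and 8.91 in wild-type and 8.88, 8.94, 8.87 and 9.04 in TBC1D4-deficient replicates, a difference of -0.03 (-0.17 to 0.11). The groups overlapped in each of these, and in Rab5c, whose values follow with those of the smallest p.

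The closest relatives of the substrates were likewise unseparated. Of the 8 measured genes in that list, which holds Rab1a, Rab1b, Rab2b, Rab4a, Rab4b, Rab8b, Rab13 and Rab35, 2 lay above and 6 below 0, with a median of -0.03, and 0 passed. Rab8b stood at 0.03 (-0.14 to 0.20), Rab13 at 0.07 (-0.09 to 0.24) and Rab35, a Rab of endocytic recycling, at -0.04 (-0.21 to 0.12). Rab2b read 5.03, 4.83, 4.73 and 5.00 in wild-type and 4.99, 4.78, 4.61 and 4.72 in TBC1D4-deficient replicates, a difference of -0.12 (-0.34 to 0.09). Replicate 1 was the highest array in each genotype, and the groups overlapped.

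One Rab gene had groups that did not overlap, lower without TBC1D4. That is a share of 1.72%, where 1.85% of all probe sets did not overlap and 0.907% were lower. The same gene was the only one with an unadjusted p below 0.05, as 2.9% of all probe sets had, 1.48% with a lower level. This was Rab40b, an atypical Rab with a SOCS box that recruits a ubiquitin ligase. It read 3.66, 3.71, 4.08 and 3.83 in wild-type and 3.64, 3.58, 3.59 and 3.55 in TBC1D4-deficient replicates. TBC1D4-deficient replicate 1 and wild-type replicate 1 lay side by side, and wild-type replicate 3 stood above the rest. The log2 difference was -0.23 (-0.43 to -0.03; limma unadjusted p = 0.0273, adjusted p = 0.9999), and -0.14 without wild-type replicate 3. The gene was dim, and its relative Rab40c, at 6.21, stood at 0.03 (-0.13 to 0.19).

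Rab27a, which docks secretory vesicles at the plasma membrane, had the largest positive difference among the brighter Rab genes. It read 8.20, 8.02, 8.13 and 8.20 in wild-type and 8.33, 8.22, 8.43 and 8.14 in TBC1D4-deficient replicates. TBC1D4-deficient replicates 1, 2 and 3 lay above all wild-type arrays and replicate 4 lay among them. The log2 difference was 0.14 (-0.03 to 0.31; limma unadjusted p = 0.105, adjusted p = 0.9999). Rab27b stood at -0.07 (-0.30 to 0.15).

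Rab38, which serves lysosome-related organelles, read 3.50, 3.52, 3.63 and 3.64 in wild-type and 3.63, 3.67, 3.72 and 3.68 in TBC1D4-deficient replicates, a difference of 0.10 (-0.03 to 0.24; limma unadjusted p = 0.117, adjusted p = 0.9999). The lowest TBC1D4-deficient array lay among the highest wild-type ones. Rab32, its close relative, stood at 0.09 (-0.19 to 0.36). Rab44, a large atypical Rab and among the dimmest (2.62 in wild-type arrays), stood at 0.14 (-0.11 to 0.39).

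Rab5c read 8.69, 8.86, 8.83 and 8.81 in wild-type and 8.65, 8.73, 8.64 and 8.77 in TBC1D4-deficient replicates. Wild-type replicate 1 lay among the TBC1D4-deficient arrays, and the difference was -0.10 (-0.24 to 0.04; limma unadjusted p = 0.152, adjusted p = 0.9999). The other Rab5 genes stood at -0.05 (Rab5a) and -0.0015 (Rab5b). Rab6b read 6.28, 6.56, 6.75 and 6.41 in wild-type and 6.39, 6.42, 6.37 and 6.32 in TBC1D4-deficient replicates. Its wild-type arrays spread more widely (SD 0.20) than the TBC1D4-deficient ones (SD 0.04) and enclosed them, and the difference was -0.12 (-0.34 to 0.09). Rab6a, the broadly expressed Golgi paralog, stood at 0.04 (-0.09 to 0.17).

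**Figure D5:**
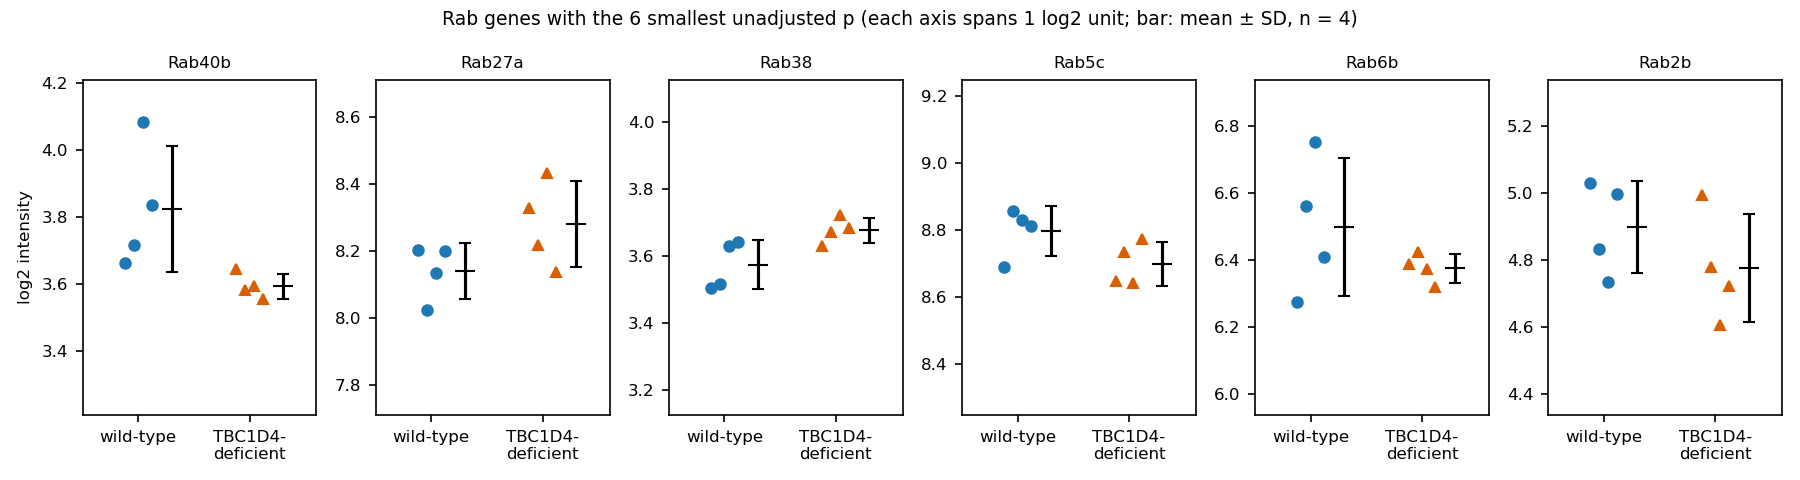
Log2 intensity in each of 4 wild-type (circles) and 4 TBC1D4-deficient arrays (triangles), with mean ± SD, for the Rab genes with the 6 smallest unadjusted p. Only for Rab40b do the groups not overlap, and 0 of the 6 passed the adjusted threshold.

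Grouped by compartment, the Rab genes were spread around 0 in each group, and 0 passed in any; some genes, such as Rab11a, are in more than one list. Of 14 genes of early and recycling endosomes, 4 lay above and 10 below 0 (median -0.02), with Rab22a at 0.07 and Rab15 at -0.08. Of 10 genes of late endosomes, lysosomes and autophagy, 5 lay on each side (median 0.0037), with Rab7 at -0.06 and Rab24 at 0.03. Of 9 genes of the endoplasmic reticulum and Golgi, 4 lay above and 5 below (median -0.03), with Rab18 at -0.06 and Rab1a at -0.05. Of 7 genes of regulated secretion, 3 lay above and 4 below (median -0.0019). Of 6 genes of epithelial polarity and junctions, 3 lay on each side (median 0.0018). There Rab25 stood at 8.63 ± 0.05 with TBC1D4 and 8.61 ± 0.05 without it (mean ± SD over n = 4 arrays), Rab11a at 7.24 ± 0.05 and 7.26 ± 0.04, and Rab17 at 6.61 ± 0.13 and 6.59 ± 0.02.

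Further Rab genes ranged in level from 4.10 to 7.22, and some of them, such as Rab12 and Rab43, were already counted in the compartment lists. Rab12, which acts in receptor traffic to lysosomes, stood at a level of 7.22 with a log2 difference of -0.05, and Rab33b, which binds the autophagy protein Atg16l1, at a level of 5.80 with a difference of -0.05. Rab29, which recruits the kinase Lrrk2, had a level of 5.29 and a difference of -0.0058, and Rab43, of the Golgi, 4.62 and 0.0047. Rab23, an antagonist of Hedgehog signalling, had a level of 5.00 and a difference of -0.02, and Rab28, a Rab of cilia, 5.12 and 0.07. Rab20 had a level of 5.13 and a difference of 0.08, Rab19 4.43 and 0.03, and Rab36 4.10 and -0.03. Every interval in this group spans 0.

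The SD of the Rab genes over the 8 arrays had a median of 0.099 on the log2 scale, beside 0.117 for all genes and 0.0947 for genes at or above the median Rab level, and ran from 0.036 for Rab5b to 0.24 for Rab30. It was 0.084 in the median for genes at 6 or above and 0.124 for those below. The most variable were Rab30, a Golgi Rab, and Rab3a, Rab31 and Rab32.

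Rab30 read 3.85, 3.89, 3.52 and 3.44 in wild-type and 4.11, 3.70, 3.47 and 3.81 in TBC1D4-deficient replicates. Its highest array, TBC1D4-deficient replicate 1, had the lowest proximal tubule marker mean (-1.05), and its lowest, wild-type replicate 4, the highest (0.71). In a limma fit with genotype and that marker mean, Rab30 had the steepest slope of the Rab genes, -0.35 log2 units per unit of the mean (-0.52 to -0.17), which did not pass (adjusted p = 0.114). Slopes of 0 of 58 Rab genes passed, where 1.19% of all probe sets did, with 29 slopes above and 29 below 0. The next steepest were Rab32 at 0.19 (-0.04 to 0.41), Rab39b at -0.17, Rab5a at -0.16, Rab34 at 0.16 and Rab44 at 0.15.

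Rab3a read 5.38, 5.29, 5.49 and 5.12 in wild-type and 5.30, 5.62, 4.95 and 5.34 in TBC1D4-deficient replicates, so TBC1D4-deficient replicates 2 and 3 marked both ends. Its log2 difference was -0.02 (-0.31 to 0.28). Rab31, of the Golgi and endosomes, read 6.76, 6.39, 6.68 and 6.28 in wild-type and 6.72, 6.81, 6.39 and 6.44 in TBC1D4-deficient replicates. Each genotype held a higher and a lower pair of arrays, and the difference was 0.06 (-0.22 to 0.35). Rab32 read 4.07, 4.41, 4.64 and 4.21 in wild-type and 4.28, 4.61, 4.30 and 4.50 in TBC1D4-deficient replicates, with overlapping groups.

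The genes of the proteins that load, unload and extract Rab GTPases were also examined, and 0 of them passed. Here, as for the Rab genes, array signal of transcripts was read, which does not give protein amounts or GTP loading. Of 7 measured genes of prenylation and membrane extraction, 5 lay above and 2 below 0 (median 0.07). The smallest p-values there belonged to Rabif at 0.10 (-0.04 to 0.23), Chml, a Rab escort protein, at 0.17 (-0.11 to 0.44), Rabggtb, a subunit of the geranylgeranyl transferase, at 0.10, and Rabac1 at 0.07. Of 32 exchange factors and their regulators, 20 lay above and 12 below 0 (median 0.02). Rin1, an exchange factor for Rab5, stood at -0.20 (-0.39 to -0.0074) with groups that did not overlap, and was dim (3.44 in wild-type arrays), Madd at 0.13 (-0.03 to 0.29), Dennd2a at 0.12 and Rab3il1 at -0.13.

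Of 44 effectors, 29 lay above and 15 below 0 (median 0.02), with Rims2 at -0.20 (-0.37 to -0.02; limma unadjusted p = 0.0345, adjusted p = 0.9999), Rab11fip4, an effector of Rab11, at 0.17 (-0.0085 to 0.34), Rilp at 0.10 and Rilpl1 at 0.14. Rims2 was dim, at 2.24 in wild-type arrays. Among 19 partners and regulators of Rab8a, Rab10 and Rab14, 16 lay above and 3 below 0 (median 0.03). Over all genes 49.6% lay above 0, and over genes at or above the median level of the Rab genes 54.5%. Many of the 19, such as Rilpl1 and Dennd4a, are also in the effector or exchange factor lists, so these counts are not separate. Among the 19 the smallest p-values belonged to Rilpl1, Micall1 at 0.15 (-0.05 to 0.35), Rab3il1, and Dennd4a at 0.14 (-0.10 to 0.39). Micall1 is an effector of Rab8a and Dennd4a belongs to a family of exchange factors for Rab10. Of 39 GTPase-activating proteins with a TBC domain other than TBC1D4, 21 lay above and 18 below 0 (median 0.0076). The smallest p belonged to Sgsm3, whose difference of 0.18 had an interval of 0.04 to 0.33 (limma unadjusted p = 0.0199, adjusted p = 0.9999) and whose groups did not overlap. It was followed by Tbc1d31, also at 0.18, whose interval (0.0033 to 0.36) leaves out 0 too, then by Tbc1d10a (0.19) and Tbc1d23 (-0.17). Tbc1d1, the closest paralog of Tbc1d4, stood at 0.02 (-0.13 to 0.16). An unadjusted limma p below 0.05 was found for 1 of 32 exchange factors, 1 of 44 effectors and 2 of 39 TBC-domain proteins. Over all probe sets the share was 2.9%. Groups did not overlap for 1 exchange factor, 0 effectors and 1 TBC-domain protein, beside 1.85% of all probe sets.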

How the data were processed

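Labelled cDNA from 100 ng of RNA was read on 1-colour Affymetrix arrays, 1 for each of 8 samples, grouped by their titles. The authors deposited linear intensity values for 28371 probe sets. Per the submitters' processing notes they used Affymetrix Power Tools; no version, summarisation or normalization is given in those notes. Medians of 8.41 to 9.03 show that the deposited intensities share a scale.

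Log2 was taken with no pseudocount. A limma fit of genotype (version 3.58.1, R 4.3.3, with lmFit and eBayes, 2-sided) was made over 23039 probe sets with at least 1 symbol, with Benjamini-Hochberg adjustment over all of them and a threshold of 0.05. Intervals are 95% intervals of that fit. Of all probe sets 21158 had 1 symbol, 1881 several and 5332 none. The gene identifiers of all 58 Rab genes matched RefSeq (GRCm38.p6). A second fit added the mean of the proximal tubule markers. The fits were also run on simulated data with independent noise. Shifts were planted there only in probe sets above the median level, so that run does not speak of dim Rab genes. The number of arrays (4 per genotype) limits the precision.

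The members and lists were chosen with earlier results of these data known, and lists are described by counts and medians. Named with a value in every array were the substrates, the 6 Rab genes with the smallest p and the 4 with the largest SD; also the 4 brightest others. The other Rab genes are named with a level, difference or slope, and of each regulator list the 4 genes with the smallest p. The alternatives were other filters, rows, normalizations, a pseudocount, priors, array weights, blocks, covariates, subsets of arrays and other probe sets per gene.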

Additional observations from a re-analysis of the deposited data

Results flagged for a closer look

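Of 124 sets of 4 arrays (1 probe set in 1 genotype each), 2 held an array far from the others, where chance gives about 1 in 20. Rab24, which acts in autophagy, stood at 5.88 in wild-type replicate 1 and at 5.71 to 5.72 in the other wild-type arrays. Rab8a stood at 8.32 in wild-type replicate 4 and at 8.25 to 8.26 in the others, a distance smaller than the spread of the TBC1D4-deficient arrays.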

How the results depend on the processing

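The absence of calls among the Rab genes held in all 25 alternatives: 0 Rab genes passed in any of them, the smallest adjusted p of a Rab gene was 0.997, and Tbc1d4 was the only called gene in each. The sign of single differences was not stable. It turned in at least 1 alternative for 43 of the 58 genes and in none for 15, among them Rab10, Rab27a, Rab40b, Rab38 and Rab5c. Of 1326 values of single genes under an alternative, 40 moved by more than 1 SD of the replicates. Several alternatives, such as other rows, another prior or the replicate block, cannot change a difference. The 1326 include those, so the share that moved does not measure stability. With probe sets below 4 on the log2 scale dropped, 17 Rab genes lay above 0, of 44 left. With the endothelial marker mean as a covariate, which separates the genotypes, 20 Rab genes lay above 0 (median -0.05), Rab10 stood at -0.13, Rab14 at -0.11 and Rab30 at -0.36, against 0.10 without it. With the identifier range as a covariate 32 lay above 0. Rab10 stood at -0.11 within arrays 5 to 8 and at -0.0088 within 9 to 12; the causes were not tested. Leaving out each array in turn gave 23 to 31 Rab genes above 0 and differences of -0.07 to -0.0098 for Rab2a, -0.03 to 0.03 for Rab8a, -0.08 to -0.04 for Rab10, -0.05 to 0.02 for Rab14, -0.28 to -0.14 for Rab40b. Slopes on the proximal tubule mean gave 0 calls among Rab genes in each of 10 alternatives. With own-chromosome probe sets for Rab2a, Rab5b and Rab11b, chosen after seeing the data, 28 Rab genes lay above 0. The same replicate numbers occur in both genotypes, and no label says that they pair the samples. The deviations of same-numbered arrays correlated at 0.40, -0.19, 0.04 and 0.01. Those of differently numbered arrays were not set beside them, so these values cannot decide on pairing. With the replicate block, 1 probe set and 0 Rab genes were called, as without it. Each replicate number holds 1 array of each genotype, so the block cannot change a difference. The count of 26 Rab genes above 0 was therefore fixed by the design and does not speak of pairing. Precision ends at changes of about 0.17 on the log2 scale, and dim Rab genes may be at background.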
